A study of Mus musculus with 8 samples.

Results

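The Nestin-GFP reporter transcript (feature eGFP) and the transcripts of 3 endogenous intermediate filament genes, Nes (ENSMUSG00000004891), Vim (ENSMUSG00000026728) and Gfap (ENSMUSG00000020932), were followed through single cells of the mouse dentate gyrus. The members were taken by their symbols in the feature table of the count matrix, 4 of 31058 features. Every animal was heterozygous for 3 transgenes on a mixed C57BL/6J and CD1 background. These were Ki67-creERT2, in which the promoter of a proliferation gene drives tamoxifen-inducible Cre, a tdTomato reporter switched on by Cre, and Nestin-GFP. Mice received tamoxifen for 6 days and were killed on day 8, and male and female animals were pooled in each experiment. The dentate gyrus was dissected, and cells sorted on GFP and tdTomato were loaded on the 10x Chromium, which counts unique molecular identifiers (UMIs) near the 3' ends of transcripts. The 8 libraries came from 7 experiments, 1 at 1 month of age, 3 at 2 months and 3 at 6 months. The paper describes the oldest group by a range of ages, of which the label used here is the lower end. Ages within this range were not told apart. In 6 of the libraries GFP+ cells with and without tdTomato were loaded together. In 1 experiment at 2 months, replicate 1 held the GFP+tdT+ and the GFP-tdT- cells and replicate 2 the GFP+tdT- cells, and the 2 libraries were summed. The age of 2 months cannot be told apart from chemistry, because its libraries used Version 2 and the others Version 3.

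Intermediate filaments are cytoskeletal polymers whose subunits differ between cell types. Nestin, encoded by Nes, is the subunit for which neural stem and progenitor cells are best known, vimentin (Vim) is made by many immature and mesenchymal cells, and glial fibrillary acidic protein (Gfap) marks astrocytes and the radial stem cells of the adult dentate gyrus. The Nestin-GFP transgene places GFP under the promoter and an intronic neural enhancer of Nes, and it is widely used to isolate hippocampal stem cells. Nestin is also made outside the neural lineage, in blood vessel cells.

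In GENCODE M21 coordinates on GRCm38, Vim spans chr2:13573927-13582826 (plus strand), Nes chr3:87971078-87980451 (plus strand) and Gfap chr11:102887336-102900912 (minus strand). The eGFP feature is an element that the authors added to the reference, with no position in the genome. The bases upstream of the RefSeq starts of Nes and Gfap are shown because these 2 members had the least similar patterns over cell types. They are the RefSeq sequences of GRCm38.p6 at chr3:87970843-87971077, which ends before the first annotated exon of Nes, and at chr11:102897201-102897450, read on the strand of each gene. The Gfap stretch lies inside the GENCODE span of Gfap given above, since the RefSeq start used is not the outermost GENCODE start. Capitals mark matches to the searched motifs.
Nes: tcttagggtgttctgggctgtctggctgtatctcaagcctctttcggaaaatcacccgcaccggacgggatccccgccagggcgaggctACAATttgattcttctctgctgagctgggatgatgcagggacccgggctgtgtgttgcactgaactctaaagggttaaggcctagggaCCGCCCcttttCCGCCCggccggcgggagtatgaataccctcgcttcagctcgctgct
Gfap: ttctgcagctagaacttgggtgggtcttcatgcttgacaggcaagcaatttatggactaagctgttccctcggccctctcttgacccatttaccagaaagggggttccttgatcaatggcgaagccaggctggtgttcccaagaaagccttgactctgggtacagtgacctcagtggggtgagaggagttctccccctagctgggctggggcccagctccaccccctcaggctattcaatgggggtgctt
Counted back from the RefSeq start, the Nes window held a GC box (GGGCGG, here on the other strand as CCGCCC) beginning at position -73 and another at -62, and a Sox core (ACAAT) at -161. The Vim window, not printed because it lies in an annotated exon, held a TATA box (TATAAA) at -32 and CCAAT boxes (CCAAT) at -196 and -94. The Gfap window held no match to these 4 motifs or to the STAT palindrome TTCNNNGAA. None of the matches overlapped, and both strands were searched. Over 32851 windows of 250 bases upstream of annotated starts, the GC box was held by 32.7%, the Sox core by 27.7%, the TATA box by 12.4%, the CCAAT box by 33.8% and the STAT palindrome by 7.02%.

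The libraries held 26036 barcodes, with 4861883 to 43826338 UMIs per library and a median of 1960 to 7636.5 UMIs per barcode. They held 57913 UMIs of eGFP, 1784 of Nes, 20982 of Vim and 9838 of Gfap. Of 24376 cells with over 500 genes and under 10% mitochondrial UMIs, 729 (2.99%) carried markers of different lineages and were set aside as doublets, and 22100 were assigned to a type by marker lists that contain no member. Names end in "-like" because they rest on these lists alone. The quiescent neural stem cell (NSC)-like cells numbered 1457. All 13 of their markers were detected in at least 1 cell, from Notum in 0.206% of the cells to Hopx in 96.2%. The median cell held 38.5% of its own list against 16.7% of the astrocyte list, an order that the gate itself sets. Of these cells, 22.6% stood less than 10% of a list above the next type, where the gate asked for 5%. Only 59 of 25976 barcode sequences occurred in more than 1 library. Levels are in CPM, the UMIs of a gene scaled to the usual fixed total of UMIs, from the summed cells of a type in an experiment, for sums of at least 20 cells. The 7 experiments are given in the order 1 month, 2 months (the summed replicates 1 and 2, then 3 and 4) and 6 months (replicates 1 to 3).

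The reporter transcript was carried by most of the sorted types, at levels that differed widely between them. It was highest in mural-like cells, of the vessel wall, at 2405 ± 995 CPM (SD, n = 7), and next in quiescent NSC-like cells at 1590.1 ± 686 CPM. Few mural-like cells held a UMI of the contractile genes Acta2 (7.51%), Tagln (8.95%) or Myh11 (12.2%). Rgs5 and Vtn, which like these contractile genes are markers of the gate that defined the type, were found in 100% and 99.0% of them. Progenitors, astrocytes and oligodendrocyte precursors held intermediate levels, and committed oligodendrocyte-like cells were close to the level of microglia-like cells.

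In quiescent NSC-like cells, eGFP stood at 2129 CPM at 1 month, at 1081, 2416 and 2366 CPM at 2 months and at 1230.4, 1110.4 and 797 CPM at 6 months. Mural-like cells held 3097 CPM at 1 month, 1538, 3387 and 3753 CPM at 2 months and 1889.7, 1983 and 1188 CPM at 6 months. The ranges of the 2 types overlapped, but mural-like cells were the higher in 7 of 7 experiments, by 0.59 ± 0.18 on the log2 scale (SE; edgeR quasi-likelihood test, Benjamini-Hochberg adjusted p = 0.0056). The call was lost without the experiment block (adjusted p = 0.13) and with a lead of 15% between marker lists, an alternative chosen after seeing the data (log2 difference 0.46, adjusted p = 0.058).

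Oligodendrocyte precursor-like cells (OPCs), the dividing glia that give rise to oligodendrocytes, held eGFP at 618 CPM at 1 month, 249, 589 and 714 CPM at 2 months and 520.2, 538 and 319.8 CPM at 6 months. All 7 values lay below the lowest quiescent NSC-like value, and the log2 difference was -1.59 ± 0.18 (adjusted p = 5.8e-11). Cycling OPC-like cells, present in 3 experiments, held 1375 CPM at 1 month and 777 and 545 CPM in 6-month replicates 2 and 3. They exceeded the OPC-like cells of the same experiment in 3 of 3, by 0.85 ± 0.24 (adjusted p = 0.0066). This comparison was chosen after the values were seen, and it failed without the experiment block, without 1 month and without 6-month replicate 3. Against quiescent NSC-like cells the cycling OPC-like cells were lower by -0.73 ± 0.25 (adjusted p = 0.012), a call also lost without the block (adjusted p = 0.12) or without any of the 3 experiments that held them.

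Along the neuronal lineage, eGFP was lower in progenitors than in quiescent NSC-like cells and lowest in neuroblast-like cells. Cycling intermediate progenitor-like cells (IPCs) held 739.9 CPM at 1 month, 437, 593 and 556 CPM at 2 months and 366, 486 and 259.7 CPM at 6 months. IPC-like cells with at most 1 cycling marker held 657 CPM at 1 month, 363, 497 and 496 CPM at 2 months and 288, 274 and 217 CPM at 6 months. In neuroblast-like cells, which express the immature neuron gene Dcx, the values were 161 CPM at 1 month, 103, 189 and 206 CPM at 2 months and 63.5, 91.2 and 66.0 CPM at 6 months. All 3 types lay below the lowest quiescent NSC-like value. The log2 differences from quiescent NSC-like cells were -1.63 ± 0.19 for cycling IPC-like cells (adjusted p = 4.6e-11), -1.95 ± 0.19 for IPC-like cells (adjusted p = 2.7e-13) and -3.65 ± 0.21 for neuroblast-like cells (adjusted p = 7.7e-23). Cycling IPC-like cells were above other IPC-like cells in 7 of 7 experiments, but the difference of 0.32 ± 0.19 did not pass the test (adjusted p = 0.22).

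Astrocyte-like cells held eGFP at 600.1 CPM at 1 month, 96.1, 210.1 and 262 CPM at 2 months and 609.9, 272 and 307 CPM at 6 months, a log2 difference of -2.12 ± 0.20 from quiescent NSC-like cells (adjusted p = 4.8e-13). Endothelial-like cells, the lining of the vessels, held 532 CPM at 1 month, 241, 245 and 318 CPM at 2 months and 179, 225 and 161 CPM at 6 months. They were lower than quiescent NSC-like cells by -2.41 ± 0.23 (adjusted p = 1.6e-13), and mural-like cells exceeded them by 3.01 ± 0.23 (adjusted p = 1e-16). The 2 vascular types differed in the reporter in 7 of 7 experiments, with no overlap between their ranges.

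Within the oligodendrocyte lineage the reporter did not follow a simple order. Committed oligodendrocyte-like cells, the stage that has left the precursor state and expresses Gpr17, held 9 UMIs of eGFP at 1 month (12.5 CPM), 2 UMIs in the summed 2-month replicates 1 and 2 (11.9 CPM) and 4 and 8 UMIs in 6-month replicates 2 and 3 (5.70 and 4.12 CPM). Myelinating oligodendrocyte-like cells, at the end of the lineage, held 161, 206 and 191 CPM at 2 months and 144, 164 and 118 CPM at 6 months. All 4 committed values lay below every OPC-like and every myelinating value. The log2 difference of committed from OPC-like cells was -6.00 ± 0.41 (adjusted p = 1.2e-18), and that of myelinating from committed cells was 4.52 ± 0.44 (adjusted p = 2.3e-13); both comparisons were chosen after the values were seen. Against quiescent NSC-like cells, the differences were -7.59 ± 0.41 for committed cells (adjusted p = 1.7e-23) and -3.06 ± 0.20 for myelinating cells (adjusted p = 6.6e-20).

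In order of mean level, mural-like, quiescent NSC-like, cycling OPC-like (899 ± 428 CPM, n = 3), OPC-like (507 ± 166 CPM), cycling IPC-like (491 ± 157 CPM), IPC-like (399 ± 157 CPM), astrocyte-like (337 ± 195 CPM), endothelial-like (271 ± 126 CPM), myelinating (164 ± 31.7 CPM, n = 6), neuroblast-like (126 ± 59.0 CPM) and committed oligodendrocyte-like cells (8.56 ± 4.27 CPM, n = 4) followed each other. Of these neighbours in the order, only neuroblast-like and committed oligodendrocyte-like cells had ranges that did not overlap. Set against quiescent NSC-like cells, eGFP passed the test in 10 of 10 types, lower in 9 and higher in 1.

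**Figure D1:**
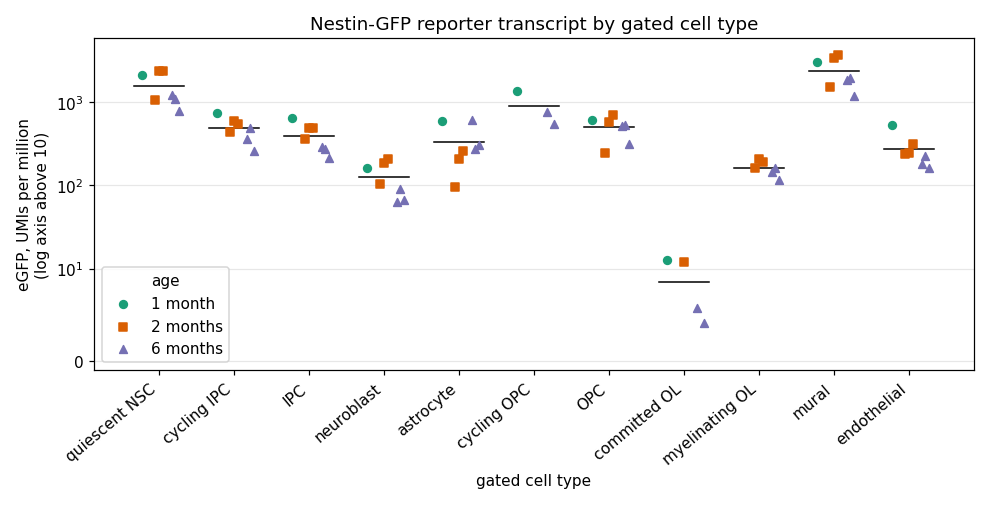
Level of eGFP (CPM, log axis above 10 and linear below) in each gated cell type, 1 point per experiment, coloured by age, with a line at the mean. Mural-like and quiescent NSC-like cells were highest and committed oligodendrocyte-like cells, at 4.12 to 12.5 CPM, lowest.

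Shares of cells with an eGFP UMI also set these types apart. They ran from 81.0% to 99.5% over the experiments in quiescent NSC-like cells, from 42.4% to 87.8% in OPC-like cells and from 3.23% to 10.7% in committed oligodendrocyte-like cells. The committed cells were the deeper, with median UMIs per cell of 5353 to 17568, against 1323 to 6005 in the quiescent NSC-like cells. In microglia-like cells, immune cells that should not express the transgene, 4 of 651 cells of the summed 2-month replicates 1 and 2 had a UMI (0.614%, exact 95% interval 0.168% to 1.57%, counting error only, median 2878 UMIs per cell). With every cell thinned to 2000 UMIs, the share was 71.1% to 97.1% in quiescent NSC-like cells, 20.3% to 30.1% in myelinating oligodendrocyte-like cells and 5.85% to 27.8% in neuroblast-like cells. At that depth the variance of eGFP UMIs per cell over their mean, which is 1 for counting alone, was 1.53 to 2.32 in quiescent NSC-like cells and 1.15 to 1.66 in OPC-like cells.

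The sort on GFP bears on every level of eGFP, because cells with too little GFP protein were not collected. The 1 library that held GFP-tdT- cells, 2-month replicate 1, can be set beside replicate 2 of the same experiment. Its 465 astrocyte-like cells held 5 UMIs of eGFP, 5.26 CPM (exact Poisson 95% interval 1.71 to 12.3), against 199 CPM (170.3 to 232) in the 350 astrocyte-like cells of replicate 2. In the same cells Gfap differed less, at 274 CPM against 458 CPM. Myelinating oligodendrocyte-like cells held 2 UMIs of eGFP in the 40 cells of replicate 1 and 171 CPM in replicate 2, and endothelial-like cells none in 16 cells (the count of 0 allows up to 109 CPM) against 271 CPM. Neuroblast-like cells differed less, at 65.0 CPM against 121 CPM. The microglia-like cells came almost wholly from replicate 1, with 648 of 698 cells and 4.52 CPM of eGFP.

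The number of members that passed the test can be read against the share of all 14139 tested features that passed in the same comparison with quiescent NSC-like cells, which is large because cell types differ in many genes. All 4 members passed in mural-like cells (48.7% of all features), endothelial-like cells (46.9%), IPC-like cells (54.9%), neuroblast-like cells (62.1%), OPC-like cells (61.5%), myelinating oligodendrocyte-like cells (61.1%) and committed oligodendrocyte-like cells (50.5%). In astrocyte-like cells 3 of 4 passed, all but Gfap (27.1% of all features), and in cycling IPC-like cells (57.5%) and cycling OPC-like cells (47.7%) all but Nes. Between mural-like and endothelial-like cells 3 of 4 passed (31.7% of all features). In the comparisons chosen after the values were seen, 3 of 4 passed between cycling OPC-like and OPC-like cells (17.6%), 3 between committed oligodendrocyte-like and OPC-like cells (47.1%), 2 between myelinating and committed oligodendrocyte-like cells (52.1%) and 1 between cycling IPC-like and IPC-like cells (26.2%). All comparisons with quiescent NSC-like cells share those sums.

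Endogenous Nes did not share the reporter's order: it was highest in endothelial-like cells, at 194 ± 116 CPM (SD, n = 7), where the reporter was far from its highest. Mural-like cells followed at 80.1 ± 47.0 CPM and quiescent NSC-like cells at 25.4 ± 18.4 CPM. The counts were small, so that several values rest on few UMIs.

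Endothelial-like cells held Nes at 246 CPM at 1 month, 84.2, 167 and 60.6 CPM at 2 months and 179, 410.4 and 211 CPM at 6 months. In quiescent NSC-like cells it stood at 59.4 CPM at 1 month, 21.6, 4.58 and 7.81 CPM at 2 months and 20.9, 28.2 and 35.0 CPM at 6 months. The quiescent NSC-like values rest on 221 UMIs at 1 month but on 18, 1 and 1 UMIs at 2 months and 6, 15 and 27 UMIs at 6 months. Endothelial-like cells were the higher in 7 of 7 experiments, with no overlap between the ranges, by 2.51 ± 0.26 on the log2 scale (adjusted p = 5.2e-13). Mural-like cells held 112 CPM at 1 month, 81.4, 0 and 60.5 CPM at 2 months and 56.6, 104 and 146 CPM at 6 months. They exceeded quiescent NSC-like cells by 1.49 ± 0.26 (adjusted p = 1.7e-06) and stood below endothelial-like cells by -1.02 ± 0.25 (adjusted p = 0.00087), the reverse of the order of eGFP in the 2 vascular types.

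Among progenitors, cycling IPC-like cells held Nes at 27.2 CPM at 1 month, 19.6, 17.3 and 10.1 CPM at 2 months and 6.06, 32.7 and 39.5 CPM at 6 months. Their log2 difference from quiescent NSC-like cells, -0.43 ± 0.26, did not pass the test (adjusted p = 0.16), although it did under the lead of 15% (-0.75, adjusted p = 0.016) and the stricter cell filter (-0.63, adjusted p = 0.031). IPC-like cells held 17.9 CPM at 1 month, 17.2, 1.64 and 3.82 CPM at 2 months and 13.8, 14.3 and 21.9 CPM at 6 months, lower than quiescent NSC-like cells by -1.17 ± 0.29 (adjusted p = 0.00045; without the 1-month experiment -0.71, adjusted p = 0.12). Neuroblast-like cells held 3.28 to 11 CPM over the 7 experiments, a difference of -2.29 ± 0.30 (adjusted p = 1.1e-09). Between cycling and other IPC-like cells Nes differed by 0.74 ± 0.29, just above the threshold (adjusted p = 0.050), and passed under 7 alternatives.

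Nes was lower in OPC-like and astrocyte-like cells than in quiescent NSC-like cells. OPC-like cells held 6.73 CPM at 1 month, 1.97, 9.69 and 5.02 CPM at 2 months and 4.47, 3.26 and 4.07 CPM at 6 months, a difference of -3.12 ± 0.29 from quiescent NSC-like cells (adjusted p = 4.8e-15). Cycling OPC-like cells held 14.2 CPM at 1 month and 24.7 and 27.0 CPM in 6-month replicates 2 and 3, above OPC-like cells in 3 of 3 experiments by 2.28 ± 0.48 (adjusted p = 0.00019; lost without 6-month replicate 3). Their difference of -0.85 ± 0.40 from quiescent NSC-like cells did not pass (adjusted p = 0.079) but did under 6 alternatives, TMM scaling among them (-1.17, adjusted p = 0.013). Astrocyte-like cells held 0 to 7.38 CPM, with 24 UMIs in all, and differed from quiescent NSC-like cells by -2.96 ± 0.39 (adjusted p = 4.3e-09). Myelinating oligodendrocyte-like cells held 0.220 to 2.11 CPM. In committed oligodendrocyte-like cells no UMI was found among 3529394, and against a floor of 3 UMIs over the 4 sums (0.850 CPM) Nes was at least 42.4-fold lower there than the mean of quiescent NSC-like cells in the same 4 experiments and at least 4.71-fold lower than that of OPC-like cells. Without the 1-month experiment these bounds were 26.5-fold and 2.90-fold, from a floor of 1.07 CPM over the other 3 sums.

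The number of eGFP UMIs per Nes UMI within the same cells asks whether the reporter follows the endogenous gene from type to type. Depth cancels in it, except that the log2 ratio below, with 0.5 added to each count, is set by depth where Nes had 0 or 1 UMI, as in mural-like cells of 2-month replicate 3 with 290 eGFP UMIs and 0 of Nes. The pooled number differed between types from 1.51 in endothelial-like cells to 233 in myelinating oligodendrocyte-like cells. In between stood mural-like cells with 18.1, cycling IPC-like cells with 18.6, neuroblast-like cells with 18.7, IPC-like cells with 29.0, cycling OPC-like cells with 32.1, quiescent NSC-like cells with 38.8, astrocyte-like cells with 70.8 and OPC-like cells with 104.

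Per experiment, endothelial-like cells held 158 eGFP and 73 Nes UMIs at 1 month, 60 and 21, 19 and 13, and 21 and 4 at 2 months, and 13 and 13, 17 and 31, and 54 and 71 at 6 months. In every experiment their log2 ratio, with 0.5 added to each count, differed from that of quiescent NSC-like cells by -5.46 on average (SD 1.34, n = 7; exact sign-flip permutation test over experiments, p = 0.0156, the smallest that 7 experiments allow, adjusted p = 0.0469 over 9 types). The ratio was also lower in 7 of 7 experiments in neuroblast-like cells (mean difference -1.91) and in cycling IPC-like cells (-1.49) (exact permutation adjusted p = 0.0469 for each). IPC-like cells were lower in 6 of 7 experiments (mean -0.97, exact permutation adjusted p = 0.0703), and mural-like cells in 6 of 7 (mean -0.89, exact permutation adjusted p = 0.0844), neither of which passed. No ratio passed with any 1 experiment left out (for endothelial-like cells, -5.70 to -5.05, exact permutation adjusted p = 0.0703 to 0.0938). With 6 experiments the exact permutation p cannot be below 0.0312, and the adjustment over types raised it above the threshold. With the stricter cell filter, endothelial-like (-4.69, exact permutation adjusted p = 0.225), neuroblast-like (-1.90, adjusted p = 0.0703) and cycling IPC-like cells (-1.51, adjusted p = 0.0938) did not pass either.

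No glial type passed this test. OPC-like cells stood above quiescent NSC-like cells in 5 of 7 experiments (mean difference 0.55, SD 1.67, exact permutation adjusted p = 0.522), myelinating oligodendrocyte-like cells in 4 of 6 (1.46, SD 2.28, adjusted p = 0.328) and astrocyte-like cells in 4 of 7 (0.06, SD 1.84, adjusted p = 1). The 3 experiments with cycling OPC-like cells cannot give an exact permutation p below 0.25. The quiescent NSC-like values are themselves uncertain, with 1 Nes UMI in each of 2 experiments at 2 months, where the log2 ratio was 8.46 and 7.66, against 4.48 to 5.77 in the other 5.

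**Figure D2:**
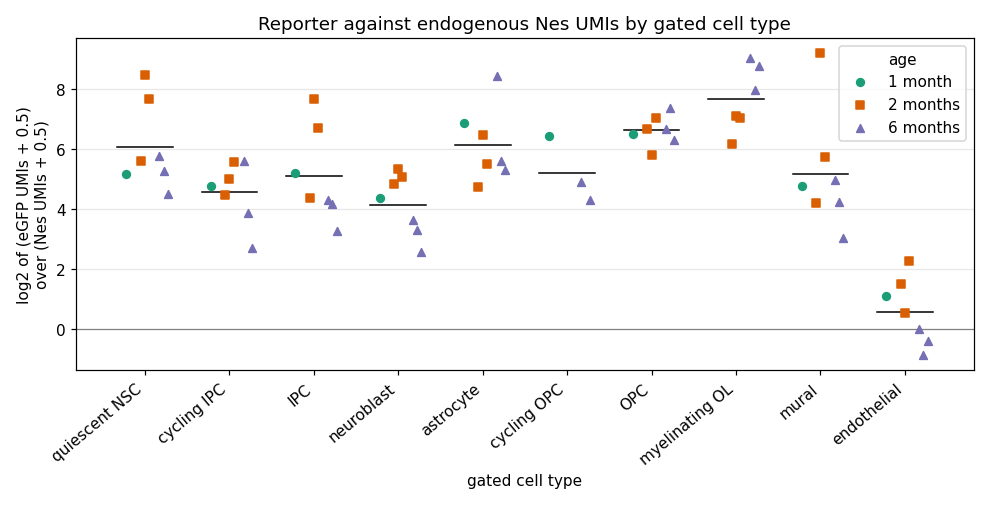
Log2 of eGFP UMIs over Nes UMIs (0.5 added to each) in each gated cell type, 1 point per experiment, coloured by age, with a line at the mean and a grey line where both counts are equal. Endothelial-like cells, from -0.85 to 2.26, lay below all values of the other types plotted. Microglia-like cells, not plotted, had a log2 ratio of 1.93 in the summed 2-month replicates 1 and 2, from 9 and 2 UMIs.

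Inside the quiescent NSC-like type, the reporter was compared between cells with at least 1 Nes UMI and cells with none, in the 5 experiments with at least 5 cells of each class. Levels of eGFP with and without a Nes UMI were 2429 and 2012 CPM at 1 month (167 and 493 cells), 1494 and 1054 CPM in the summed 2-month replicates 1 and 2 (17 and 283 cells), 1261 and 1227 CPM in 6-month replicate 1 (6 and 73 cells), 1583 and 1019 CPM in replicate 2 (13 and 74 cells) and 952 and 751 CPM in replicate 3 (22 and 101 cells). Cells with a Nes UMI were the higher in 5 of 5 experiments, by 0.37 ± 0.09 on the log2 scale (adjusted p = 0.021; 0.27% of 5193 features passed, 14 in all). Nes is 1 of the 14 by construction, because it defines the classes. The call was lost under 9 of 12 alternatives, among them TMM scaling (adjusted p = 0.12), DESeq2 (adjusted p = 1), no experiment block (adjusted p = 1) and the stricter cell filter (adjusted p = 0.54). Vim was higher too in 5 of 5, by 0.39 ± 0.10 (adjusted p = 0.046, lost under 11 of 12 alternatives, and 0.11 in thinned cells), and Gfap, at -0.10 ± 0.11, did not pass (adjusted p = 1). Deeper cells are more likely to show a Nes UMI, and those that did had a median of 6169 UMIs against 5319 at 1 month. With every cell thinned to 2000 UMIs the eGFP difference was 0.38 but no longer passed (adjusted p = 1), and it failed in 4 of the 5 fits that left out 1 experiment, all but that without 6-month replicate 1.

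**Figure D3:**
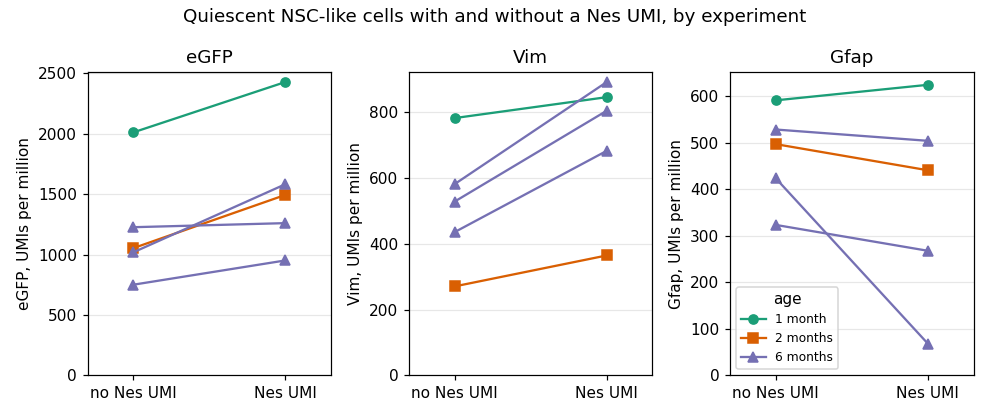
Levels of eGFP, Vim and Gfap (CPM) in quiescent NSC-like cells without and with a Nes UMI, 1 line per experiment, coloured by age. The eGFP and Vim lines rise in 5 of 5 experiments, and the Gfap lines rise in 1 of 5.

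In the vascular types the same split, again with at least 5 cells of each class, gave no common direction of eGFP. In mural-like cells the level with a Nes UMI was the higher in 3 of 5 experiments. It was 2765 against 3264 CPM at 1 month, 2118 against 1467 CPM in the summed 2-month replicates 1 and 2, and 1475 against 1939, 2041 against 1965 and 1220.2 against 1166 CPM in 6-month replicates 1 to 3. In endothelial-like cells it was the higher in 2 of 6, at 521 against 548 CPM at 1 month, 174 against 253 and 129 against 274 CPM at 2 months (the summed replicates, then replicate 3), and 215 against 167, 299 against 78.9 and 139.5 against 185 CPM at 6 months. Vim was higher in mural-like cells with a Nes UMI in 3 of 5 experiments, from 1416 against 287 CPM at 1 month to 0 against 150 CPM in the summed 2-month replicates, and in endothelial-like cells in 5 of 6. In OPC-like cells eGFP was higher with a Nes UMI in 5 of 5 experiments and in astrocyte-like cells in 3 of 3. None of these splits was tested, because a test was planned for types other than quiescent NSC-like only where 4 experiments held 20 cells of each class, and at most 3 did.

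Vim followed Nes more closely than the reporter did: it was highest in endothelial-like cells and low in the oligodendrocyte lineage. Endothelial-like cells held 1879 CPM at 1 month, 702, 335 and 424 CPM at 2 months and 1294, 1549 and 1344 CPM at 6 months. Quiescent NSC-like cells held 799 CPM at 1 month, 276, 316 and 258 CPM at 2 months and 460.1, 572 and 652 CPM at 6 months. The endothelial-like cells were the higher in 7 of 7 experiments, by 1.14 ± 0.25 on the log2 scale (adjusted p = 0.00012). In both types every 2-month value lay below every 1-month and 6-month value of Vim.

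Mural-like cells held Vim at 666 CPM at 1 month, 134, 163 and 283 CPM at 2 months and 205, 167 and 249 CPM at 6 months. They were lower than quiescent NSC-like cells by -0.97 ± 0.28 (adjusted p = 0.0027; lost without the experiment block) and lower than endothelial-like cells by -2.12 ± 0.29 (adjusted p = 1.1e-08). The type richest in the reporter thus held less Vim than quiescent NSC-like and endothelial-like cells. Cycling IPC-like cells held 639 CPM at 1 month, 354, 161 and 131 CPM at 2 months and 215, 359.7 and 255 CPM at 6 months, a difference from quiescent NSC-like cells of -0.64 ± 0.24 (adjusted p = 0.020). IPC-like cells held 506 CPM at 1 month, 345, 192 and 164 CPM at 2 months and 264, 245 and 258 CPM at 6 months, a difference of -0.71 ± 0.24 (adjusted p = 0.011). Both calls were lost without the block and without 6-month replicate 3. That of cycling IPC-like cells was also lost with TMM scaling (-0.51, adjusted p = 0.066) and without 6-month replicate 1 (adjusted p = 0.057), and that of IPC-like cells without 6-month replicate 2 (adjusted p = 0.051).

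Astrocyte-like cells held Vim at 403 CPM at 1 month, 55.9, 34.2 and 23.8 CPM at 2 months and 199, 157 and 224 CPM at 6 months, below quiescent NSC-like cells by -1.61 ± 0.26 (adjusted p = 1.9e-06). Cycling OPC-like cells held 139, 129 and 131 CPM and OPC-like cells 19.4 to 61.1 CPM, a difference of 1.21 ± 0.38 between them (adjusted p = 0.020; lost without 6-month replicate 2 or 3). Neuroblast-like cells held 22.7 to 84.4 CPM. The lowest levels were in committed oligodendrocyte-like cells, at 5.56 to 17.9 CPM, and in myelinating cells, at 8.42 to 15.1 CPM. Between these 2 types Vim differed by 0.42 ± 0.56 (adjusted p = 0.57), whereas the reporter differed by 4.52 ± 0.44.

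Among the types compared, Gfap was highest in quiescent NSC-like and astrocyte-like cells, at 595 ± 244 CPM and 463 ± 127 CPM (SD, n = 7). Types with too few cells to compare also held it. Cycling NSC-like cells had 71 UMIs in 41 cells (138 CPM) and ependymal-like cells 6 UMIs in 7 cells (283 CPM). Quiescent NSC-like cells held 600.3 CPM at 1 month, 493, 972 and 875 CPM at 2 months and 387, 314 and 523 CPM at 6 months. Astrocyte-like cells held 556 CPM at 1 month, 361, 342 and 655 CPM at 2 months and 397, 362 and 567 CPM at 6 months. The ranges overlapped, quiescent NSC-like cells were the higher in 4 of 7 experiments, and the log2 difference of -0.25 ± 0.19 did not pass (adjusted p = 0.38). Gfap was the 1 member that did not pass between these types, where eGFP, Nes and Vim all did.

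Every other type compared lay below both without overlap. IPC-like cells held Gfap at 15.8 to 62.0 CPM (log2 difference from quiescent NSC-like cells -3.94 ± 0.24, adjusted p = 2.6e-21) and cycling IPC-like cells at 4.51 to 54.7 CPM (-4.81 ± 0.26, adjusted p = 1.7e-23). Cycling IPC-like cells were lower than IPC-like cells by -0.88 ± 0.32 (adjusted p = 0.036), a comparison chosen after the values were seen whose call several alternatives ended. Myelinating oligodendrocyte-like cells held 9.75 to 22.7 CPM, neuroblast-like cells 1.89 to 15.4 CPM and OPC-like cells 0.670 to 13.6 CPM. In the vascular types there were 10 UMIs over all mural-like sums and 2 over all endothelial-like sums, and in committed and cycling oligodendrocyte-lineage sums 4 and 1. Mural-like cells, which held the most reporter, had almost no Gfap UMI.

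**Figure D4:**
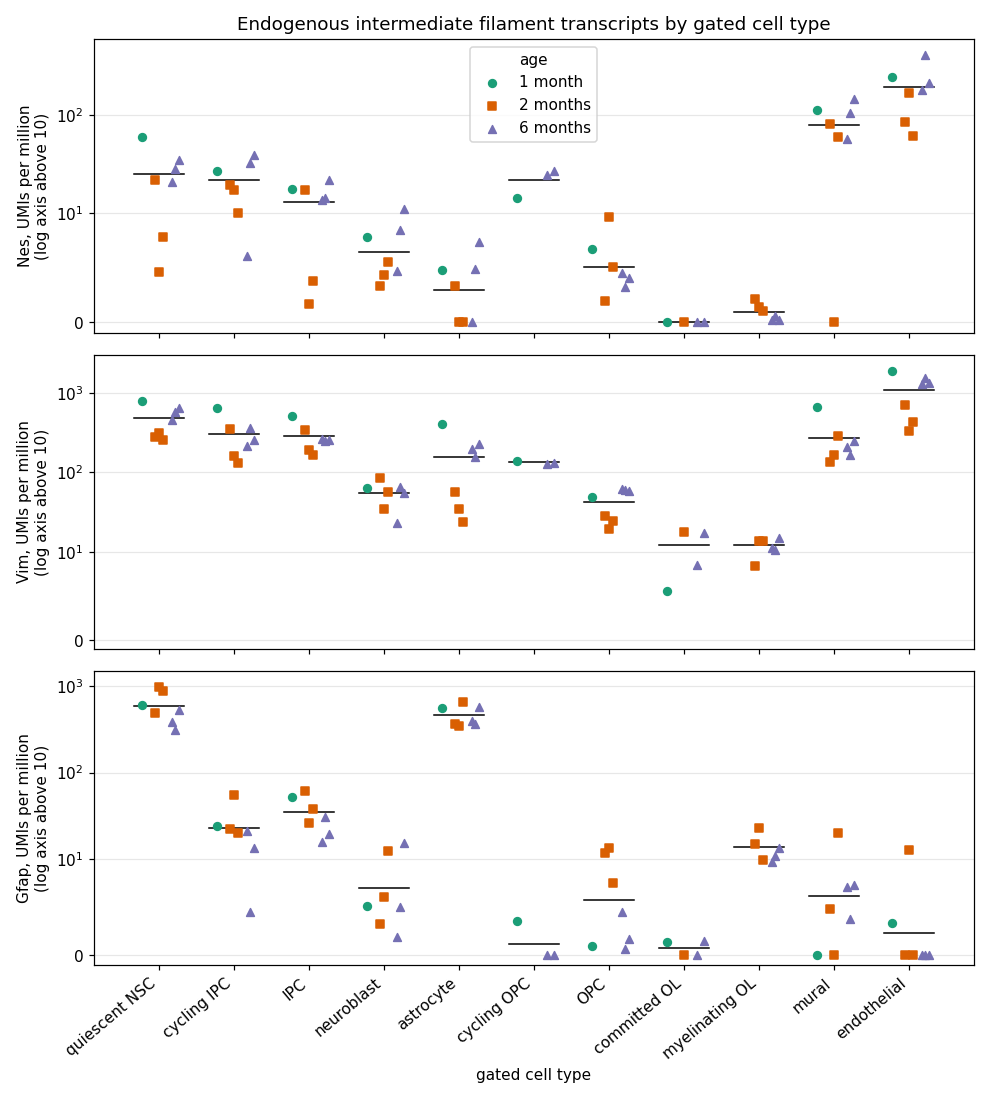
Levels of Nes, Vim and Gfap (CPM, log axis above 10 and linear below) in each gated cell type, 1 point per experiment, coloured by age, with a line at the mean. Nes and Vim peak in endothelial-like cells, and of the types plotted Gfap is high only in quiescent NSC-like and astrocyte-like cells.

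Over the 10 types with at least 4 experiments, Pearson's r of the mean log2(CPM + 1) was 0.90 between Nes and Vim, 0.66 between eGFP and Vim, 0.63 between eGFP and Nes, 0.43 between eGFP and Gfap, 0.27 between Vim and Gfap and -0.11 between Nes and Gfap. The types come from the same libraries, and these correlations are descriptions. Among 6995 other genes, those most like eGFP were Stub1 (r = 0.87), a ubiquitin ligase, Cpne3 (0.86), Nrarp (0.86), a feedback regulator of Notch signalling, Nbl1 (0.84), a secreted antagonist of bone morphogenetic proteins, and 0610009O20Rik (0.84). Nbl1 was highest in mural-like cells, at 1470.0 CPM, with 124 CPM in quiescent NSC-like cells. For Nes they were H2-Q4 (0.96), a class I histocompatibility gene of a family with near-identical copies whose counts are uncertain, Iqgap1 (0.95), Herpud1 (0.94), Cyb5r3 (0.93) and Actn1 (0.92), all highest in endothelial-like or mural-like cells. For Vim they were Clic1 (0.94), Ucp2 (0.94), Lef1 (0.93), Zic2 (0.92) and Parp12 (0.90). For Gfap they were Mlc1 (0.99), Slc25a18 (0.98), Pxmp2 (0.98), Id4 (0.97) and Ccdc190 (0.96). Mlc1, a membrane protein of astrocytes, stood at 866 CPM in astrocyte-like and 805 CPM in quiescent NSC-like cells.

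Of 39 other genes for intermediate filaments, their linkers and factors that control Nes or Gfap, 32 were tested between types. The Nes regulators Sox1, Sox2 and Pax6 were nearly absent where Nes was highest. Sox2, a stem cell factor that binds the Nes enhancer, stood at 569 CPM in quiescent NSC-like cells, 4.83 CPM in endothelial-like cells and 5.30 CPM in mural-like cells. Sox1 was at 168 CPM in quiescent NSC-like cells and at 0 UMIs in endothelial-like cells, and Pax6 at 165 CPM and 1 UMI. In endothelial-like cells 5 of the 32 were called higher and 17 lower, where 46.9% of all features were called in either direction. The median log2 difference was -1.99 against -0.23 over all features. In mural-like cells 4 were higher and 17 lower (48.7% of all features called, median -1.16 against -0.08). Des, which encodes the muscle filament desmin, was at 208 CPM in mural-like cells, at 7.42 CPM in endothelial-like cells and at 0 UMIs in quiescent NSC-like cells. Synm, which encodes synemin, a partner of desmin and vimentin filaments, was the reverse, at 10.4 CPM in mural-like and 80.4 CPM in endothelial-like cells. Between the vascular types 5 were higher and 5 lower in mural-like cells (31.7% of all features called).

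In OPC-like cells 14 of the 32 were called higher and 13 lower than in quiescent NSC-like cells (61.5% of all features called). The median was 0.19 against 0.36 over all features. The POU factor gene Pou3f1 was at 289 CPM in OPC-like cells, 24.4 CPM in committed oligodendrocyte-like cells and 2.09 CPM in quiescent NSC-like cells, while Sox9, a glial factor gene, was at 6.48 CPM in OPC-like and 467 CPM in quiescent NSC-like cells. In cycling OPC-like cells 11 were higher and 10 lower (47.7% of all features called). Committed oligodendrocyte-like cells, where the reporter was lowest, had 2 of the 32 higher and 21 lower than OPC-like cells (47.1% of all features called). The median was -1.66 against -0.38. Pou3f1 and the POU factor gene Pou3f2 (15 against 102 CPM) were among the lower. Committed cells had 3 higher and 19 lower than quiescent NSC-like cells (50.5% of all features called), and myelinating cells 5 and 20 (61.1%). From committed to myelinating cells 6 were higher and 13 lower (52.1% of all features called), with Synm rising from 2.75 to 35.1 CPM.

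Against quiescent NSC-like cells, astrocyte-like cells had 4 of the 32 higher and 12 lower (27.1% of all features called, median -0.32 against -0.11). The enhancer factor gene Tead2 was among the lower, at 9.62 against 38.9 CPM. IPC-like cells had 12 higher and 14 lower (54.9% of all features called), cycling IPC-like cells 13 and 14 (57.5%), and neuroblast-like cells 11 and 11 (62.1%). Lmnb1, which encodes the nuclear lamina protein lamin B1, was at 545 CPM in cycling IPC-like cells, 157 CPM in IPC-like cells and 17.2 CPM in quiescent NSC-like cells. Ina, which encodes the neuronal filament internexin, was at 100.3 CPM in neuroblast-like cells and 1.23 CPM in quiescent NSC-like cells. Sox11 also rose in these 3 types but is itself a marker of the neuroblast gate. From IPC-like to cycling IPC-like cells 5 were higher and 9 lower (26.2% of all features called). From OPC-like to cycling OPC-like cells 4 were higher and 2 lower (17.6%).

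Age was the study's main comparison, and it was made within each type that had sums in all 7 experiments. In quiescent NSC-like cells eGFP was lower at 6 months than at 1 month by -1.03 ± 0.22 on the log2 scale (edgeR quasi-likelihood adjusted p = 0.0012), the 3 values at 6 months (797 to 1230.4 CPM) all lying below the single value at 1 month (2129 CPM). It was 1 of the 4 members to pass, where 0.886% of 8687 features passed. The 1-month value has no replicate, and the test assumes that it varies like the others. The call was lost without 6-month replicate 3 (-0.86, adjusted p = 0.096), without 2-month replicate 4 (-1.03, adjusted p = 0.15), with DESeq2 (-1.12, adjusted p = 1) and with the lead of 15% (-0.90, adjusted p = 0.094). Nes differed by -1.00 ± 0.35 (adjusted p = 0.23), Gfap by -0.54 ± 0.23 (adjusted p = 0.51) and Vim by -0.49 ± 0.23 (adjusted p = 0.62), and none of these passed.

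In IPC-like cells eGFP was lower at 6 months than at 1 month by -1.36 ± 0.21 (adjusted p = 0.00073), again the 1 member of 4 to pass (0.161% of 8704 features), and it passed under all 13 alternatives, from -1.47 to -1.23. In endothelial-like cells eGFP differed by -1.56 ± 0.33 (adjusted p = 0.0011) and was the 1 of 3 tested members to pass (0.375% of 2134 features), but not without 6-month replicate 3 (-1.39, adjusted p = 0.13) or with DESeq2 (-1.50, adjusted p = 0.48). Endothelial-like Nes, at 0.04 ± 0.35, did not pass (adjusted p = 1).

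In mural-like cells eGFP differed by -0.87 ± 0.50, did not pass (adjusted p = 1) and passed under 4 of 13 alternatives, among them the fit to Version 3 libraries alone (-0.88, adjusted p = 0.0050). Vim was the 1 of 3 tested members to pass there (-1.67 ± 0.26, adjusted p = 1.2e-06; 0.346% of 5498 features), but with over 1000 genes and under 5% mitochondrial UMIs asked of each cell the difference was -0.36 (adjusted p = 0.99), and DESeq2 did not call it either (-1.70, adjusted p = 0.24). In astrocyte-like cells Vim alone passed of 3 tested members (-1.05 ± 0.25, adjusted p = 0.014; 0.362% of 9111 features), and not without 6-month replicate 2 (-0.91, adjusted p = 0.21) or replicate 3 (-1.20, adjusted p = 0.053), nor with DESeq2 (-1.17, adjusted p = 1). Astrocyte-like eGFP differed by -0.65 ± 0.32 (adjusted p = 0.71), with 6-month replicate 1 at 609.9 CPM beside 272 and 307 CPM in replicates 2 and 3. Without that replicate the difference was -1.04 (adjusted p = 0.034).

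No member passed between 6 months and 1 month in cycling IPC-like cells (0 of 4, 0.0938% of 9590 features), neuroblast-like cells (0 of 4, 0.0296% of 10144 features) or OPC-like cells (0 of 4, 0.357% of 11209 features). The differences of eGFP there were -1.01 ± 0.24 (adjusted p = 0.13), -1.17 ± 0.28 (adjusted p = 0.34) and -0.44 ± 0.64 (adjusted p = 1), each estimate below 0. In cycling IPC-like and neuroblast-like cells eGFP passed under 4 of 13 alternatives each, and without the summed 2-month replicates 1 and 2 the values were -1.01 (adjusted p = 5.1e-05) and -1.18 (adjusted p = 0.00026). Whether the age difference of eGFP itself differed between types was not tested.

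**Figure D5:**
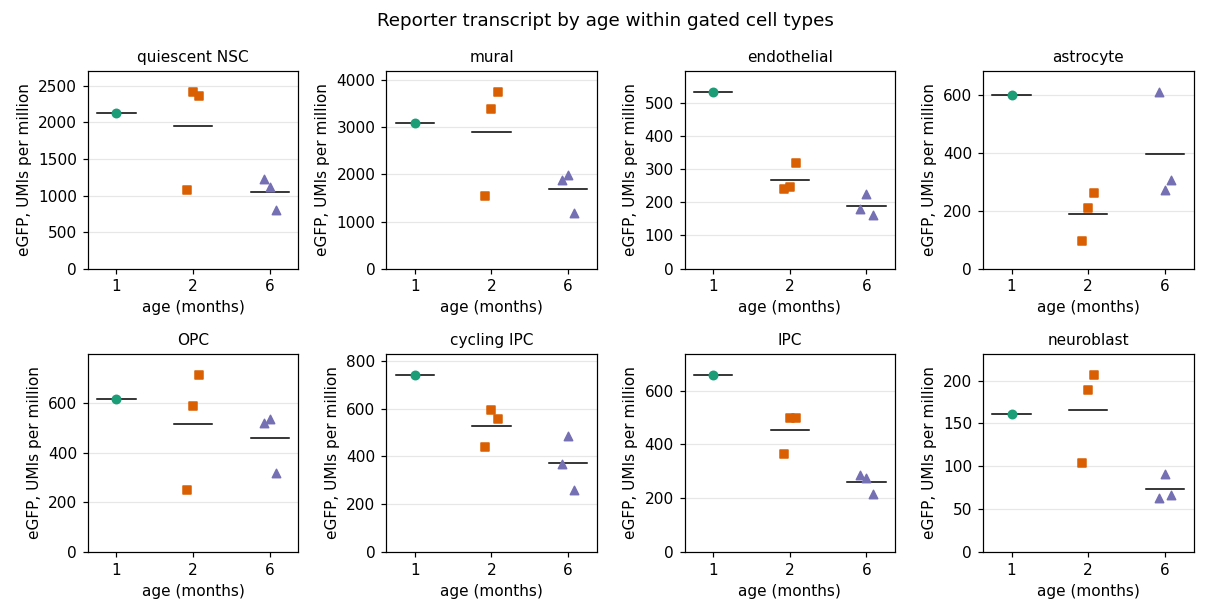
Level of eGFP (CPM, linear axes from 0) by age within 8 gated cell types, 1 point per experiment, with a line at the mean of each age. In quiescent NSC-like, mural-like, endothelial-like, OPC-like, IPC-like, cycling IPC-like and neuroblast-like cells all values at 6 months lie below that at 1 month.

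Between 6 and 2 months, where age and chemistry cannot be told apart, 3 of the 4 members passed in quiescent NSC-like cells and 10.3% of 8687 features did. The reporter was lower at 6 months by -0.89 ± 0.17 (adjusted p = 2.1e-05), with 797 to 1230.4 CPM against 1081 to 2416 CPM. This call was lost without 2-month replicate 4 (-0.73, adjusted p = 0.082), without the 1-month experiment (-0.90, adjusted p = 0.13) and with DESeq2 (-0.85, adjusted p = 0.20). Gfap was lower by -0.89 ± 0.18 (adjusted p = 5.2e-05) and Vim higher by 0.99 ± 0.19 (adjusted p = 1.2e-05), the Vim ranges of 460.1 to 652 CPM and 258 to 316 CPM not overlapping. Nes differed by 0.87 ± 0.44 (adjusted p = 0.21). Of 23 tested genes of the filament and regulator list, 6 were higher at 6 months and 2 lower, Sox1 (223 against 107 CPM) and Sox2 (706 against 391 CPM) among the higher and Sox11 (32.0 against 117 CPM) and Tead2 (20.6 against 60.4 CPM) the lower.

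In other types eGFP did not change in 1 direction between 6 and 2 months. It was lower at 6 months in IPC-like cells (-0.81 ± 0.16, adjusted p = 0.00069; 14.7% of 8704 features) and neuroblast-like cells (-1.20 ± 0.23, adjusted p = 0.00097; 19.1% of 10144 features), under all 13 alternatives in both. In astrocyte-like cells it was higher, by 1.32 ± 0.29 (adjusted p = 0.0014; 12.2% of 9111 features). This call was lost under 5 of 13 alternatives, with TMM scaling (adjusted p = 0.11), DESeq2 (adjusted p = 0.19), without 2-month replicate 4 (adjusted p = 0.26), without the 1-month experiment (adjusted p = 0.20) and without the summed 2-month replicates 1 and 2, which hold the GFP-tdT- astrocyte-like cells (0.73, adjusted p = 0.10). The differences did not pass in cycling IPC-like (-0.51 ± 0.19, adjusted p = 0.087; 10% of 9590 features), mural-like (-0.76 ± 0.38, adjusted p = 0.29; 10.7% of 5498), endothelial-like (-0.54 ± 0.30, adjusted p = 0.29; 9.65% of 2134) and OPC-like cells (-0.18 ± 0.47, adjusted p = 0.83; 27.5% of 11209).

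Vim was higher at 6 than at 2 months in astrocyte-like cells (2.00 ± 0.25, adjusted p = 8.3e-13), OPC-like cells (1.26 ± 0.22, adjusted p = 5.9e-05) and endothelial-like cells (1.44 ± 0.23, adjusted p = 6.5e-08), the last not with the stricter cell filter (0.70, adjusted p = 0.35). Gfap was lower in OPC-like cells (-2.90 ± 0.71, adjusted p = 0.0025), IPC-like cells (-1.07 ± 0.33, adjusted p = 0.026, lost under 5 alternatives) and cycling IPC-like cells (-1.34 ± 0.44, adjusted p = 0.044, lost under 6). The OPC-like values were low, with 71 UMIs of Gfap over all 7 sums and 0.670 to 13.6 CPM. For comparison, microglia-like cells of the summed 2-month replicates 1 and 2 held 6.01 CPM of Gfap. Nes was higher in endothelial-like cells by 1.33 ± 0.33 (adjusted p = 0.0015), a call lost under 4 alternatives, with DESeq2 (adjusted p = 0.11), the stricter cell filter (adjusted p = 0.058), without the summed 2-month replicates (adjusted p = 0.088) and without 6-month replicate 2 (adjusted p = 0.11).

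The ratio of the reporter to Nes in quiescent NSC-like cells had a mean log2 value of 5.17 at 6 months and 7.24 at 2 months, and was 5.16 at 1 month. The difference of -2.07 between 6 and 2 months did not pass (exact permutation test, two-sided, p = 0.2, adjusted p = 0.36 over 9 types), and 3 experiments against 3 cannot give a p below 0.1. In IPC-like cells the difference was -2.33, in neuroblast-like cells -1.90, in endothelial-like cells -1.84 and in myelinating oligodendrocyte-like cells 1.82, each at the smallest p of 0.1 by exact permutation (adjusted p = 0.225). Several of these ratios rest on few Nes UMIs. Myelinating cells held 6, 7 and 1 at 2 months and 2, 3 and 2 at 6 months. IPC-like cells held 18, 1 and 2 and then 7, 6 and 27, and neuroblast-like cells 4, 5 and 4 and then 5, 5 and 20.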

How the data were processed

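The authors mapped reads with Cell Ranger 3.0.2 to a mouse mm10 reference with added reporter elements. They deposited 1 filtered matrix of UMI counts over all libraries (4861883 to 43826338 UMIs per library), with the library given by the barcode suffix. The submitters' processing notes also name cutadapt 1.18 and Seurat. From these counts, cells were required to have more than 500 detected genes and less than 10% of UMIs from mitochondrial genes, and were gated by 14 marker lists (at least 3 markers, a lead of 5% of the list over the next, cycling from 3 cycling markers). Cells with 4 markers and 40% of a list of another lineage were set aside as doublets. Counts were summed per experiment, the replicate, and type (20 cells or more) and tested with edgeR 4.0.16 in R 4.3.3 (quasi-likelihood, total UMIs as library size, filterByExpr, experiment as block between types, Benjamini-Hochberg over all features, threshold 0.05). Each experiment was a pool of animals made on its own day. Between ages, edgeR p-values measure the spread between these pools. Between types and in the split by a Nes UMI, they measure the spread left after the experiment block. All types were in 1 fit and share its estimate of the spread, including types with few sums. Ratios were tested by exact permutation, two-sided (scipy 1.17.1). Scripts were tested on simulated data. Alternatives used TMM, DESeq2 1.42.0, no low-count filter, no block, other gates and cell filters (over 1000 genes and under 5% mitochondrial UMIs in the stricter one), thinning, Version 3 libraries alone and each experiment left out. A lead of 15% was added after seeing the data.

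Coordinates are from GENCODE M21 and upstream sequences from RefSeq (GRCm38.p6). The members and lists were chosen with earlier results of these data known. Genes named are the members, the 5 genes most correlated with each over types (at least 50 CPM in a type, no gate marker) and at most 4 list genes per comparison with the largest called differences. Intervals are exact at 95% and, with the floor of 3 counts, cover counting error only.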

Additional observations from a re-analysis of the deposited data

Results flagged for a closer look

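The difference of Gfap between astrocyte-like and quiescent NSC-like cells, on the log2(CPM + 1) scale, had opposite signs at the 2 ages with 3 experiments each. It was -0.79 on average at 2 months, negative in 3 of 3 experiments (-1.50 to -0.42), and 0.12 at 6 months, positive in 3 of 3 (0.04 to 0.20). An exact permutation test of the difference between ages gave p = 0.1, the smallest that 3 against 3 allow, among 32 pairs of type and member compared. The 2-month libraries also differ in chemistry, and its part in this difference was not tested. Types with fewer than 50 cells entered no comparison, and all but the Cajal-Retzius-like cells (0 UMIs of eGFP in 22 cells) held the reporter. Cycling NSC-like cells had 635 UMIs of eGFP in 41 cells (1232 CPM, 40 cells with a UMI), ependymal-like cells 38 UMIs in 7 cells (1790.3 CPM, 7 of 7 cells) and fibroblast-like cells 27 UMIs in 47 cells (217 CPM, 20 cells), against 4.51 CPM in the microglia-like cells of the summed 2-month replicates 1 and 2. The search for a library far from the others of its age covered 24 groups and found 0.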

How the results depend on the processing

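No called value changed sign under the alternatives run. Of 167 values of the leading results under alternatives, 141 kept their side of the threshold and 26 no longer passed. Mural-like eGFP against quiescent NSC-like cells was 0.59 without the replicate block and 0.46 with the lead of 15%. Quiescent NSC-like eGFP, 6 months against 1 month, was -1.12 with DESeq2 and -0.90 with the lead of 15%, and -1.16 to -0.86 with each experiment left out. Against 2 months it was -0.85 with DESeq2 and -1.20 to -0.69 with each experiment left out. The eGFP difference between cells with and without a Nes UMI was 0.32 with TMM, 0.35 with DESeq2, 0.37 without the replicate block, 0.33 with the stricter cell filter and 0.38 in thinned cells, none of which passed, and 0.30 to 0.42 with each experiment left out. The endothelial-like ratio was -4.69 with the stricter cell filter and -5.70 to -5.05 with each experiment left out, none of which passed. The eGFP, Nes, Vim and Gfap results for endothelial-like and astrocyte-like cells against quiescent NSC-like cells, and the OPC-like ratio, kept their side under all alternatives run. Of the other results of single members, 1629 values kept their side, 84 no longer passed and 53 passed only under the alternative. The causes were not tested.

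Counts of features called moved by over 1.5 times in these cases. Without the replicate block, which pairs the types of an experiment because they come from the same animals and day, astrocyte-like against quiescent NSC-like cells fell from 3838 to 2415, cycling IPC-like against IPC-like cells from 3709 to 2112 and cycling OPC-like against OPC-like cells from 2489 to 1509 (1257 without 6-month replicate 3). The 14 features of the Nes UMI split include Nes by construction. Nes was the only 1 left with DESeq2, thinning or no block. The count was 6 with the stricter cell filter and 1 to 12 with each experiment left out, Nes always included. For 6 months against 1 month, the lowest and highest counts over alternatives were 7 and 121 in quiescent NSC-like cells (77 as reported), 2 and 59 in astrocyte-like (33), 0 (DESeq2, with 73 at an unadjusted p under 0.05) and 52 in mural-like (19), 3 and 24 in endothelial-like (8), 4 and 66 in IPC-like (14), 1 and 60 in cycling IPC-like (9), 3 and 32 in neuroblast-like (3) and 6 and 147 in OPC-like cells (40). For 6 against 2 months in quiescent NSC-like cells they were 344 and 905 (896), and DESeq2 called 389 against 1114 in astrocyte-like, 172 against 588 in mural-like, 88 against 206 in endothelial-like, 656 against 1276 in IPC-like, 510 against 962 in cycling IPC-like and 1133 against 1935 in neuroblast-like cells. OPC-like cells had 1963 without 6-month replicate 2, against 3085. No paired analysis was possible between ages because their experiments share no animals. TMM moved the median of all features by over 0.1 in 7 of 15 comparisons between types, most for myelinating against committed oligodendrocyte-like cells (0.50). Nes had 1784 UMIs in all, and 1 UMI in the quiescent NSC-like cells of each of 2-month replicates 3 and 4.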
